A study of Mus musculus with 12 samples.

Results

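The genes described here are 18 dispersed tRNA genes that are longer than most. Each lies in a stretch of deposited coverage with room for a gene of 79 to 99 bp on chromosomes 2, 4, 5, 7, 9, 10, 12, 14, 15, 16, 17, 18 or 19, after 150 bp are set aside on either end. Of the 532 stretches in the files, 18 met this rule, and 9 of the 13 chromosomes held at least 1. They measured 382 to 395 bp, with genes of 82 to 95 bp. A tRNA cloverleaf was searched for only in the bases between the flanks. It was found in all 18, and in 380 of all 434 stretches with room for 1 gene. Of the 18, 15 could be matched to a tRNA name in RefSeq (GRCm38.p6 table, names only). For 13 of these the RefSeq name carries the same anticodon, and both tRNA-Ile genes read TAT where the RefSeq names n-TIaat16 and n-TIaat17 carry AAT. Where several RefSeq genes fitted by length and neighbours, the predicted anticodon chose among them, so agreement there is no independent check.

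The study measured which genes RNA polymerase III (Pol III) occupies in mouse liver by chromatin immunoprecipitation and sequencing. There are 12 libraries in 6 groups of 2: RPC1 and RPC4, which are subunits of Pol III, RPB2, which belongs to RNA polymerase II (Pol II), an H3K4-titled and an H3K36-titled histone mark, and input chromatin. The liver donors were C57/BL6 males, 12 to 14 weeks of age, held under 12 h of light a day and fed only between Zeitgeber hours 12 and 24 during the last 7 days. 5 mice were taken at Zeitgeber hour 2 and 5 at hour 26, which serve as replicates of each other. The labels do not say which replicate number is which time, nor whether the mice were pooled, so the p-values measure the spread between libraries only. The antibody field of the H3K4-titled libraries names H3K36me3 and that of the H3K36-titled libraries names H3K4me3, so both are called by their titles. Liver is a mixture of cells, in which fewer cells with a bound gene and less binding per cell cannot be told apart.

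Pol III transcribes tRNA genes from promoter elements inside the gene. The factor TFIIIC binds the A box near the start and the B box near the end, TFIIIB is placed just upstream and recruits Pol III, and transcription stops at a run of T shortly after the gene. RPC1 is the largest, catalytic subunit, and RPC4 belongs to a subcomplex involved in termination and reinitiation. Genes for tRNA-Ser and tRNA-Leu are long because their tRNAs have a long variable arm, the extra stem between the anticodon arm and the T arm. Some other tRNA genes, tRNA-Tyr among them, are long because of an intron next to the anticodon, which is spliced out. The selenocysteine tRNA, which reads UGA codons, also has a long variable arm, and its gene is driven mainly by elements upstream of it.

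By anticodon the members were 6 tRNA-Leu, 5 tRNA-Ser, 2 tRNA-Tyr, 2 tRNA-Ile, and 1 each of tRNA-Sec, tRNA-Ala and tRNA-Met genes. The 12 tRNA-Ser, tRNA-Leu and tRNA-Sec genes are of the kinds known for a long variable arm, and 13 to 16 bases lay in that region of their cloverleafs. An intron was found in 4 others. The tRNA-Ala and tRNA-Met genes have no intron, and 16 and 24 bases of theirs were placed in the variable region. By the mm9 gene annotation, 8 lay within 1000 bp of the start of a protein-coding gene, 8 were intergenic and 2 lay in introns. The name dispersed holds only in part. Another stretch lay within 100 kb of 9 members and within 1 kb of 5.

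The sequences are shown for 4 of the 5 same-anticodon pairs described and for 5 other genes that the results turn on, 5′ to 3′ in the direction of transcription and read from the mm9 reference. Capitals mark the A box, the B box and the first run of 4 or more T after the gene, where each was found. Where no T run lay close, 20 bases after the gene are shown. The A box was searched as T, any base, G, C, 2 of any, A, 3 of any and G, with 1 further base allowed, and the B box as GNTCNANNC.
tRNA-Ser (GCT) chr2: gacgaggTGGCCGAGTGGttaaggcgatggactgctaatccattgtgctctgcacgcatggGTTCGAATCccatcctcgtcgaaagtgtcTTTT
tRNA-Ser (GCT) chr19: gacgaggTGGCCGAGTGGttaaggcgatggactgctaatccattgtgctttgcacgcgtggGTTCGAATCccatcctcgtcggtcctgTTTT
tRNA-Ser (TGA) chr10: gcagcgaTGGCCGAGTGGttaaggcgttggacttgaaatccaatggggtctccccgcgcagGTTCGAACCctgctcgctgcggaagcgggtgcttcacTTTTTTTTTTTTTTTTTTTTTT
tRNA-Leu (AAG) chr7: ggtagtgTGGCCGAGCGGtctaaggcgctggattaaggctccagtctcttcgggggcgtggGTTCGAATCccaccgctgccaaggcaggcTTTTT
tRNA-Leu (AAG) chr14: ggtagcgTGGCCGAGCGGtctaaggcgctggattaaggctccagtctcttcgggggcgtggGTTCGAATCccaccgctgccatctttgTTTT
tRNA-Leu (TAG) chr7: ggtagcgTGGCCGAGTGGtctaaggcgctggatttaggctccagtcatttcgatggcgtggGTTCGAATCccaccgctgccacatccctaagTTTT
tRNA-Leu (TAG) chr14: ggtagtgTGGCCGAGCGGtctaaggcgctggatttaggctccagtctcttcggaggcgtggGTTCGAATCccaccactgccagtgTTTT
tRNA-Tyr (GTA) chr5: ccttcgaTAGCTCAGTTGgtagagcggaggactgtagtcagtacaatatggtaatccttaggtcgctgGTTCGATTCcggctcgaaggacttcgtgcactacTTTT
tRNA-Ile (TAT) chr7: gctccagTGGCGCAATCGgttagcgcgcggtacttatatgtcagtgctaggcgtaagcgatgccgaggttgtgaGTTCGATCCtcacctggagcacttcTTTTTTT
tRNA-Ile (TAT) chr17: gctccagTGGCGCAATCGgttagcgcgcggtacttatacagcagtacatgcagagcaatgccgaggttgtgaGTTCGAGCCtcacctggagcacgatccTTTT
tRNA-Sec (TCA) chr7: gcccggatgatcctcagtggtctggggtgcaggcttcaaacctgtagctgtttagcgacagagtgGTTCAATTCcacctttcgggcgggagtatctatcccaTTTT
tRNA-Ala (AGC) chr9: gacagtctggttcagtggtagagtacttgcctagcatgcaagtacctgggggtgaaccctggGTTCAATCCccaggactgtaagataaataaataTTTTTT
tRNA-Met (CAT) chr10: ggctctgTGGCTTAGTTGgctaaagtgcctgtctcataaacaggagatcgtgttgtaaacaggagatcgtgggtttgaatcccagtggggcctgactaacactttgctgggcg

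In mm9 coordinates the tRNA-Ser (GCT) genes are chr2:118872486-118872567 and chr19:5038304-5038385, and tRNA-Ser (TGA) is chr10:62892224-62892305, all on the minus strand. The tRNA-Leu (AAG) genes are chr7:128061031-128061112 and chr14:51683558-51683639 on the plus strand, and the tRNA-Leu (TAG) genes chr7:127978993-127979074 and chr14:51702505-51702586 on the minus strand. On the plus strand lie tRNA-Tyr at chr5:31190456-31190544, tRNA-Ile at chr7:29158018-29158112 and chr17:84261284-84261376, and tRNA-Sec at chr7:19886593-19886678. On the minus strand lie tRNA-Ala at chr9:74956737-74956819, in an intron of Myo5a, a myosin motor gene, and tRNA-Met at chr10:62656988-62657080, in an intron of Mypn, a gene for a sarcomere protein. Other members are tRNA-Ser (AGA) at chr4:10801211-10801292, tRNA-Ser (CGA) at chr10:127895520-127895601 and tRNA-Leu (TAA) at chr10:12642369-12642451 and chr19:12085576-12085658.

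Both boxes were found at their usual places in 15 of the 18 genes. The A box was found in 16, all but tRNA-Sec and tRNA-Ala, and the B box in 17, all but tRNA-Met. The extra bases lie between the boxes. From the start of the A box to that of the B box the members measured 54 bp at the median (54 to 67), against 45 (43 to 57) in 41 short dispersed tRNA genes with both boxes, those of 70 to 78 bp on the same chromosomes. In 34 genes of the same length on other chromosomes with both boxes it was 55 bp (54 to 68), close to the members. The widest spacings among the members, 61 to 67 bp, were those of the 4 genes with introns. A run of 4 or more T began within 30 bp of the end of 17 of 18 members (94.4%). The share was 70.7% of the 82 short genes, 81.1% of 37 of the same length on other chromosomes and 84.2% of all 380 predicted tRNA genes. The longest run, 22 T, followed tRNA-Ser (TGA). As background, the B box letters occur on either strand in the central 300 bases of 83.6% of all stretches and in 33.4% of RefSeq promoters of 300 bases, and in all 18 members. The A box letters occur in 80.8% of stretches and 50.4% of promoters.

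The introns differ between genes. That of tRNA-Tyr on chromosome 5 reads tcagtacaatatggta (16 bases). The introns of tRNA-Ile are 21 bases on chromosome 7 (tgtcagtgctaggcgtaagcg) and 19 bases on chromosome 17 (cagcagtacatgcagagca). The tRNA-Met gene holds a direct repeat of 16 bases, taaacaggagatcgtg, while no other member has a repeat over 6 bases.

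Pol III coverage stood above input on 16 members, and its mean was below that of input on 2. Over all 18 members the median coverage, in reads per base and averaged over the 4 Pol III libraries, was 112.6 (0.079 to 235.9). The median was 21.5 for the 82 short dispersed tRNA stretches, 12.9 for 37 stretches of the same length on other chromosomes and 15.2 for all 532. Coverage was under 5 in 2 of 18 members (11.1%), 46.3% of the short dispersed stretches and 37.8% of those of equal length elsewhere. It was 100 or more in 10 members (55.6%), against 26.8% and 13.5%. No test was made of these differences between kinds of stretch. The members cover 3.13% of the length in the files and took 7.13% to 7.56% of the coverage in the 4 Pol III libraries, against 2.47% and 2.49% in input.

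The highest member was tRNA-Ser (GCT) on chromosome 2, 288 bp from the start of Casc5, a kinetochore gene. Its coverage was 208.0 and 148.8 in the RPC1 libraries and 279.7 and 307.0 in the RPC4 libraries, against 1.19 and 1.36 in input. That is more Pol III than 99.4% of the other stretches held. tRNA-Leu (AAG) on chromosome 14 came next, with 178.6 and 136.8 in RPC1, 249.7 and 247.0 in RPC4, and 1.72 and 0.761 in input. tRNA-Tyr (GTA) on chromosome 5 had 163.6 and 112.1 in RPC1, 211.9 and 236.7 in RPC4, and 0.925 and 1.86 in input. All Pol III values of these 3 genes lay far above every input value. A further stretch begins 43 bp from that of the chromosome 5 gene, so reads from a second gene may reach into it.

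The next members described held somewhat less. tRNA-Leu (TAG) on chromosome 7 had 154.3 and 95.7 in RPC1 and 163.2 and 175.9 in RPC4. tRNA-Leu (TAA) on chromosome 10 had 120.9 and 83.6 in RPC1 and 165.5 and 149.4 in RPC4. tRNA-Ser (TGA) on chromosome 10 had 144.0 and 107.8 in RPC1 and 128.3 and 115.6 in RPC4. Its RPC1 and RPC4 values overlapped, which among occupied members was otherwise seen only on tRNA-Ile (TAT) of chromosome 7. tRNA-Ile (TAT) on chromosome 17 had 109.3 and 84.6 in RPC1 and 152.0 and 133.1 in RPC4. Input was between 0.173 and 1.89 in all of them.

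At the low end, 3 occupied members held between 22 and 47.6 reads per base. tRNA-Leu (TAG) on chromosome 14 had 14.8 and 13.3 in RPC1 and 27.5 and 32.3 in RPC4, with 0 and 0.853 in input. tRNA-Ser (GCT) on chromosome 19, 441 bp from the start of B3gnt1, had 36.1 and 28.4 in RPC1 and 55 and 51.6 in RPC4, with 0.613 and 0.641 in input. tRNA-Leu (TAA) on chromosome 19 had 34.8 and 20.8 in RPC1 and 58.6 and 76.3 in RPC4, with 0.705 and 0.397 in input. Both Pol III subunits stood far above input on these genes too. A further 5 occupied members, tRNA-Ser (CGA), tRNA-Ile on chromosome 7, tRNA-Ser (AGA), tRNA-Leu (AAG) on chromosome 7 and tRNA-Sec, lay between 54.9 and 118.5.

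The 2 members without Pol III above input, called empty here, were those in introns of protein-coding genes. tRNA-Met (CAT) had 0.493 and 0.294 in RPC1 and 0.00809 and 0.643 in RPC4, below its input values of 1.35 and 0.735. tRNA-Ala (AGC) had 0 and 0.117 in RPC1, 0 and 0.198 in RPC4, and 0 and 0.7 in input, the lowest Pol III of all 532 stretches. Each lacks 1 of the boxes. tRNA-Sec lacks the A box as well and carried 53.2 and 36.6 in RPC1 and 66.7 and 63.1 in RPC4.

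**Figure D1:**
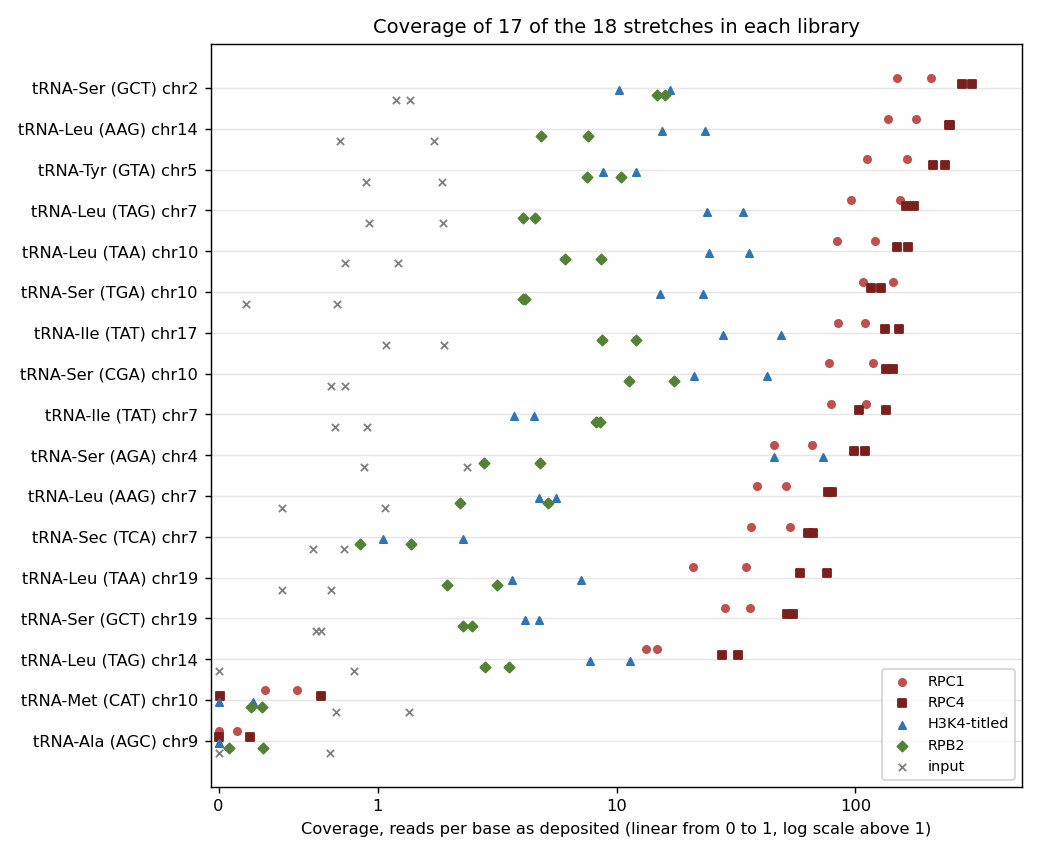
Coverage of 17 of the 18 stretches (rows, ordered by mean Pol III) in reads per base as deposited, on an axis that is linear from 0 to 1 and logarithmic above. Each point is 1 library of RPC1, RPC4, H3K4-titled, RPB2 or input; H3K36-titled libraries are not drawn. Pol III lies far right of input in 15 rows and at or below input in tRNA-Met and tRNA-Ala.

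Over input, Pol III was higher on all 16 members that passed the filter on low coverage, where 74.3% of 478 tested stretches were (limma, Benjamini-Hochberg adjusted p below 0.05, background-anchored scaling). The 2 empty members did not pass the filter. This scaling sets the 25% of stretches with least Pol III equal in all libraries. Its log2 folds ran from 5.35 to 7.65 with a median of 6.67, against 3.84 over all tested stretches and 5.91 over 68 short dispersed ones. The largest was tRNA-Ser (TGA) at 7.65 (SE 0.46), and the smallest was tRNA-Leu (TAG) on chromosome 14 at 5.35 (SE 0.45). With file totals as the scale, where a fold compares shares of each file, 11 of 17 members were above input and 1, tRNA-Met, below, where 20.7% of stretches were above and 49.2% below. Going from file totals to the anchored scaling moves the median fold of all stretches by 4.96 on the log2 scale for Pol III, 2.08 for RPB2, 5.36 for H3K4-titled and 0.61 for H3K36-titled libraries. Input held only 3.53 to 16.5 read equivalents of 76 bp per member over both libraries, which limits every fold.

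At the edges of the length rule, the 9 members of 382 bp had a median Pol III coverage of 118.5 (22 to 235.9), and the 9 stretches of 374 bp, the longest below the rule on these chromosomes, 1.24 (0.426 to 170.0). The longest member, tRNA-Ile on chromosome 7 at 395 bp, had 106.7, and the next longer stretch, a U6 small nuclear RNA gene of 402 bp on chromosome 12, had 35.8.

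Genes with the same anticodon differed clearly in load in 4 of the 5 pairs described. Positions here count from 1 at the 5′ end of the gene without its intron, with the base of the first-named gene first. The tRNA-Leu (AAG) genes of chromosomes 7 and 14 differ by T6C alone, in the acceptor stem. Pol III was 3.48, 3.52, 3.24 and 3.09 times higher on chromosome 14 in the 4 libraries. The chromosome 7 gene, 146 bp from the start of Polr3e, which codes for a Pol III subunit, had 51.3 and 38.8 in RPC1 and 77 and 80 in RPC4. The groups of 4 libraries did not overlap between the 2 genes. Of their Pol III values, 19.8% and 20.3% were not whole numbers, and whether reads shared with other copies enter both was not tested.

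The tRNA-Ser (GCT) genes of chromosomes 2 and 19 differ by C50T and A58G, and chromosome 2 was 5.09 to 5.95 times higher in the 4 libraries. The tRNA-Leu (TAG) genes of chromosomes 7 and 14 have 7 differences, and chromosome 7 was 5.44 to 10.4 times higher. The tRNA-Leu (TAA) genes of chromosomes 10 and 19 have 6 differences, and chromosome 10 was 1.96 to 4.02 times higher. In these 3 pairs and the tRNA-Leu (AAG) pair, the same gene was higher in all 4 libraries. The genes of the intron-bearing tRNA-Ile pair stood closer together. For them, with the single change T60G, within the B box, and different introns, the ratio of chromosome 17 to chromosome 7 was 0.99 to 1.29. A paired exact test over 4 libraries cannot give a p below 0.125, and none was run. Outside the gene the 150 upstream bases match at only 32 to 46 places in any of the 5 pairs.

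**Figure D2:**
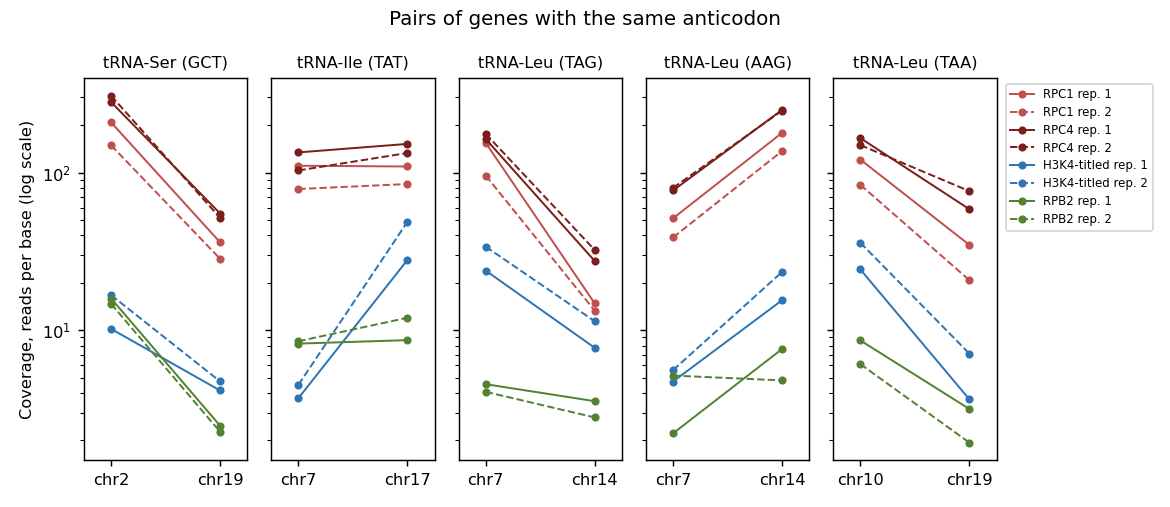
Coverage in reads per base (log scale) of 5 pairs of genes with the same anticodon, 1 panel a pair, with a line for each library of RPC1, RPC4, H3K4-titled and RPB2. Lines for Pol III are steep in the tRNA-Ser (GCT) and all 3 tRNA-Leu panels and nearly flat for tRNA-Ile.

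RPC1 and RPC4 ranked the members alike. Across the 16 occupied members, which share libraries and depth, Pearson's r between mean RPC1 and mean RPC4 was 0.95 and Spearman's rho 0.96. With file totals as the scale, the difference between the subunits passed the test on 2 of 16 tested members. tRNA-Ser (TGA) was higher in RPC1, by 0.72 on the log2 scale (SE 0.10, limma adjusted p = 0.000185), where 5.23% of 478 stretches were higher in RPC1. tRNA-Leu (TAA) on chromosome 19 was lower in RPC1, by a log2 difference of -0.62 (SE 0.18, limma adjusted p = 0.0376), where 5.02% were higher in RPC4. The median difference over the tested members was -0.005, against 0.02 over all stretches. Neither call stood with anchored scaling or with all 12 libraries in the fit, where limma called 0 members (2 and 0 at an unadjusted p below 0.05). Of all 478 stretches it called 1.05% and 0%. With all 12 libraries the differences themselves were still 0.72 and -0.61. With coverage as deposited the difference at tRNA-Ser (TGA) was 0.03 and was not called, and limma called 3 members, all lower in RPC1, where 20.1% of stretches were. That of tRNA-Leu (TAA) was also lost without RPC1 replicate 1, RPC1 replicate 2 or RPC4 replicate 2. In tRNA-Ser (TGA), coverage falls steeply after the gene. The 50 bases before it had a mean Pol III coverage of 227.1 and the 50 bases after it, which hold the run of 22 T, 37.6, and only 6.6% and 4.4% of RPC1 coverage and 7.8% and 12.9% of RPC4 coverage lay downstream. The part of this in the level difference was not tested.

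RPC1 lay upstream of RPC4 along the gene. The position is the centroid of coverage, the coverage-weighted mean distance from the first base of the gene in the direction of transcription. Over the 16 occupied members the median centroid was 32.4 and 23.7 bp in the RPC1 libraries and 52.8 and 60.6 bp in the RPC4 libraries. Both RPC1 centroids lay upstream of both RPC4 centroids on 14 of 16 members, where 90.9% of 263 oriented stretches showed the same. The exceptions were tRNA-Ser (AGA), with 33.1 and 11.9 bp in RPC1 and 44.3 and 32.6 bp in RPC4, and tRNA-Leu (TAG) on chromosome 14, with 57.1 and 68.3 bp against 55 and 77.1 bp. The first has 4 further copies of its gene on chromosome 13 and the second the least Pol III of the 16.

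The difference passed the test on 12 of 16 members, all with RPC1 upstream, where 75.7% of 263 tested stretches did (limma, adjusted p below 0.05) and 0.380% had RPC1 downstream. The share in members is that of the background. The median difference, RPC1 minus RPC4, was -26.6 bp, against -25.4 bp over all tested stretches, -24.4 bp over 44 short dispersed tRNA genes and -24.0 bp over 23 of the same length on other chromosomes. All share a standard error of 8.65 bp, since the fit found no spread of variances between stretches. Each p-value thus rests on a spread pooled over 263 stretches and does not take up a shift shared by a whole library. The SD between the 2 library medians over members was taken for RPC1 and for RPC4. Combined as the root of the sum of their squares, these gave 8.31 bp. The largest was at tRNA-Ser (CGA), 30.7 and 15.1 bp in RPC1 against 56.2 and 69.5 bp in RPC4, a difference of -40.0 bp (limma adjusted p = 8.43e-05). Next were tRNA-Ile on chromosome 7 at -32.4 bp and tRNA-Ser (GCT) on chromosome 2 at -30.9 bp. No member had RPC1 downstream. The smallest differences were tRNA-Leu (TAG) on chromosome 14 at -3.3 bp, tRNA-Leu (AAG) on chromosome 7 at -9.3 bp and tRNA-Sec at -10.7 bp, none of which passed the test, nor did tRNA-Ser (AGA) at -16.0 bp. Without RPC1 replicate 1 the count fell to 7 and without RPC1 replicate 2 to 3, as the background fell to 46% and 18.6%, while the median stayed between -19.7 and -32.1 bp whichever Pol III library was left out.

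The summit, the place of highest coverage, moved the same way but less evenly. Both RPC1 summits lay upstream of both RPC4 summits on 11 of 16 members, where 73.0% of oriented stretches did. On summits 0 of 16 passed limma's test (3 at an unadjusted p below 0.05), where 4.18% of 263 stretches did. The single largest centroid, 87.6 bp in RPC4 replicate 2, was at tRNA-Tyr on chromosome 5, beside its neighbouring stretch. The most upstream were at tRNA-Ser (TGA), -13 and -19.7 bp in RPC1 and 0.304 and 13.2 bp in RPC4, the gene with little coverage after its T run. Of the 2 tRNA-Leu (AAG) genes that differ by 1 base, chromosome 14 had RPC1 at 18 and 17.3 bp and chromosome 7 at 59.8 and 60.7 bp.

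**Figure D3:**
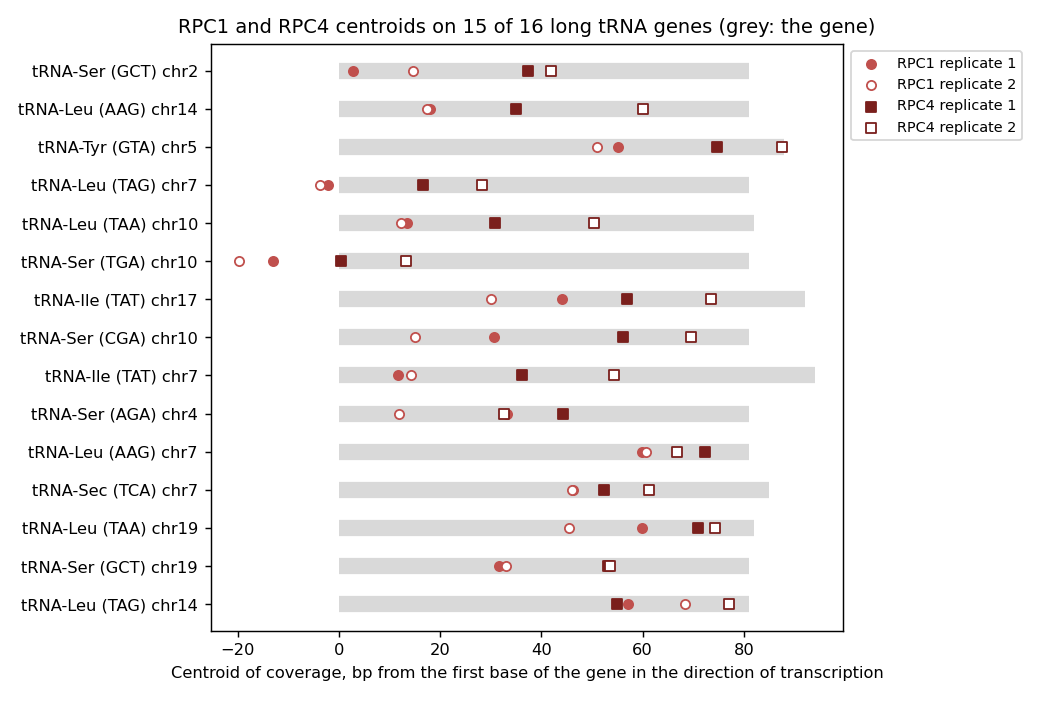
Centroid of RPC1 (circles) and RPC4 (squares) coverage on 15 of the 16 occupied members, in bp from the first base of the gene, with replicate 1 filled and replicate 2 open. Grey bars are the genes, 82 to 95 bp. Both RPC1 points lie left of both RPC4 points on all the genes drawn but tRNA-Ser (AGA) and tRNA-Leu (TAG) of chromosome 14.

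Measured from the first base, centroids lay further in on the long genes than on the short. The medians on 44 short dispersed tRNA genes were 20.2 and 17.4 bp in RPC1 and 41.3 and 50.8 bp in RPC4. All 4 medians of the members were larger. A longer gene also moves the middle of its stretch further from the first base. Measured from the middle of the gene, the members had medians of -9.3 and -19.6 bp in RPC1 and 10.4 and 19.1 bp in RPC4. The short genes had -15.5 and -18.3 bp in RPC1 and 5.4 and 14.8 bp in RPC4. Measured from the last base the differences were smaller or went the other way, at -49.8 and -62.8 bp in RPC1 and -33.8 and -22.8 bp in RPC4 on the members, against -51.3 and -54.1 bp and -30.4 and -21.2 bp on the short genes. Stretches of the same length on other chromosomes had 31.4 and 24.4 bp in RPC1 and 53.8 and 61.3 bp in RPC4 from the first base, close to the members. The gene itself is 21.5% of a member's length and held 37.1% and 36.4% of RPC1 coverage and 39.5% and 37.5% of RPC4 coverage at the median. RPC1 coverage leaned to the upstream flank, 36.2% and 40.2% against 27.4% and 22.5% downstream, and RPC4 to the downstream flank, 33.3% and 40.2% against 25.2% and 23.7% upstream.

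**Figure D4:**
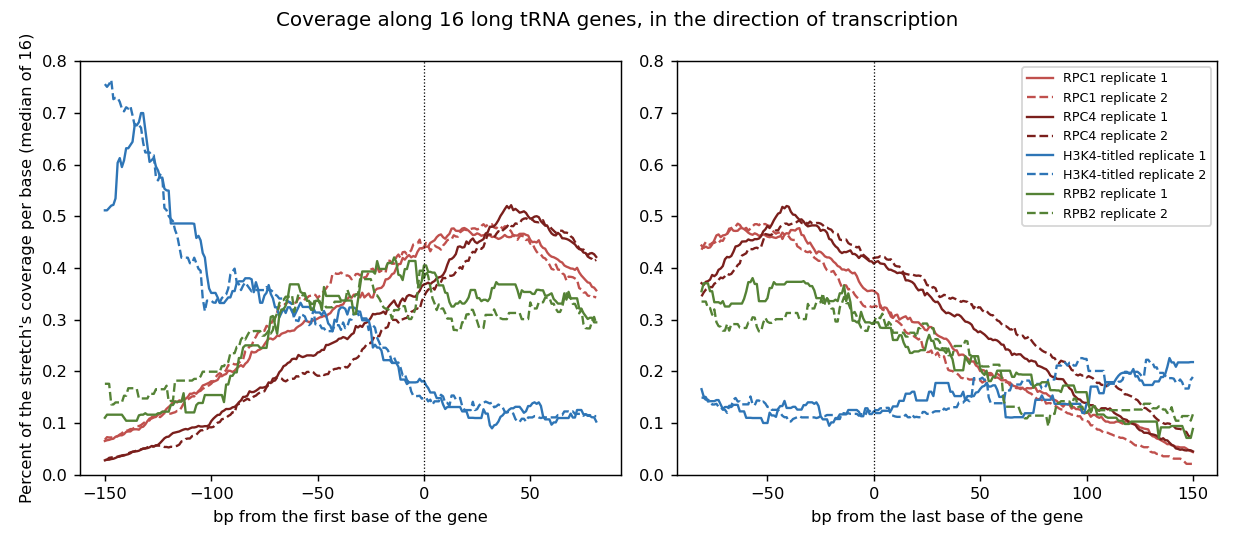
Median over the 16 occupied members of the coverage at each base, as a percent of the stretch's own total, against distance from the first base (left panel) and from the last base (right panel) of the gene, for each RPC1, RPC4, H3K4-titled and RPB2 library. RPC1 and RPC4 peak over the gene with RPC1 further upstream, and H3K4-titled coverage is lowest over the gene and highest in the far upstream flank.

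How many of the same genes had Pol II above input depended on the scaling. As deposited, mean RPB2 coverage was above that of input on all 16 occupied members, which is not corrected for depth. Over the stretches RPB2 libraries held 14779 and 13848 read equivalents, against 3563 and 3365 in input. On coverage as deposited RPB2 passed the test on 15 of 16 members, where 39.5% of 478 stretches did. With the anchored scaling it did on 15 of 16, where 42.9% did. With the median of ratios as the scale it did on 3 of 16, where 8.79% did. With file totals it did on 2 of 17, tRNA-Ser (CGA) and tRNA-Ile on chromosome 7, where 6.69% did, and tRNA-Met was below input, where 22.2% were. The fold turned below 0 at tRNA-Ser (AGA), tRNA-Leu (TAG) of chromosome 7, tRNA-Sec and, narrowly, tRNA-Ser (GCT) of chromosome 19. The median log2 fold with anchored scaling was 2.94 over the members (0.86 to 4.18), against 1.04 over all stretches and 1.95 over the short dispersed ones.

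The highest fold was at tRNA-Ser (CGA), 691 bp from the start of Smarcc2, which codes for a chromatin remodelling subunit. Its RPB2 coverage was 11.3 and 17.4 against 0.796 and 0.709 in input, a log2 fold of 4.18 (SE 0.39, limma adjusted p = 1.78e-06). tRNA-Ser (GCT) on chromosome 2 had 15.9 and 14.7, a log2 fold of 3.73 (SE 0.45), and the highest mean RPB2 of the members. Its RPB2 was thus 6.45 times that of the chromosome 19 gene, which had 2.48 and 2.27. tRNA-Ile on chromosome 7 had 8.23 and 8.52, a log2 fold of 3.35 (SE 0.41), and tRNA-Ser (TGA) 4.12 and 4.07, a log2 fold of 3.06 (SE 0.53). tRNA-Sec was the one tested member not called, with 0.886 and 1.38 against 0.788 and 0.591 in input (log2 fold 0.86, SE 0.57, limma adjusted p = 0.245). RPB2 at the 2 empty members was 0.0653 and 0.282 for tRNA-Ala and 0.205 and 0.273 for tRNA-Met, below the mean of input in both.

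RPB2 levels overlapped between members with and without a protein-coding start within 1000 bp. Its median coverage was 6.23 (2.38 to 15.3) on the 8 members with such a start and 5.26 (1.13 to 14.7) on the 8 intergenic ones, with median log2 folds of 2.99 and 2.74, which overlap widely. Within the stretch, RPB2 covered the gene and the upstream flank more than the downstream flank. The gene held 28.6% and 25.2% of RPB2 coverage at the median, over its 21.5% of the length, and more than its share of length in both libraries on 12 of the 14 members with at least 10 reads in each. Over all stretches with as many reads the gene held 26.8% and 28.5% over 19.6% of the length. Upstream exceeded downstream in both libraries on 8 of these 14 and the reverse held on 2. Over all stretches with as many reads the medians were 40.1% and 35.9% upstream and 30.7% and 34.4% downstream. Among members near a start whose libraries leaned the same way, the heavier side was that of the start in 6 of 6. Among intergenic members it was that of the nearest start in 3 of 4, and all 4 leaned upstream. No such count was made over all stretches, and a link to gene starts was not tested.

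H3K4-titled coverage was above input on all 16 tested members with the anchored scaling, where 67.6% of 478 stretches were. On coverage as deposited it was above on 15, where 38.5% were, and with the median of ratios as the scale on 14, where 25.5% were. With file totals it was above on 7 of 17, where 13.4% were, and below on 1, tRNA-Met, where 53.1% were, and the fold turned below 0 at tRNA-Sec and tRNA-Ile of chromosome 7. The median log2 fold with anchored scaling was 7.12 over the members (3.93 to 8.24), against 3.66 over all stretches and 4.25 over the short dispersed ones. The largest was at tRNA-Ser (AGA), 353 bp from the start of 2610301B20Rik, with coverage of 45.4 and 73 against 2.36 and 0.914 in input and a log2 fold of 8.24 (SE 0.46, limma adjusted p = 1.67e-09). Its gene has 4 copies on chromosome 13, and 16.8% of its Pol III values were not whole. Whether its H3K4-titled signal holds reads shared between copies was not tested. Of that signal, 77.5% and 74.5% lay in the downstream flank.

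tRNA-Ser (CGA) followed with 21.1 and 42.6, a log2 fold of 8.08 (SE 0.39). tRNA-Ser (TGA) had 15.2 and 22.9, a log2 fold of 8.01 (SE 0.53). tRNA-Leu (TAA) on chromosome 10, which lies 41614 bp from the nearest protein-coding start, that of the syntaxin gene Stx11, had 24.3 and 35.9 and a log2 fold of 7.78 (SE 0.38). A high H3K4-titled level was thus also found far from annotated starts. The lowest was tRNA-Sec, 8716 bp from the start of Fosb, with 1.05 and 2.28 (log2 fold 3.93, SE 0.57). On coverage as deposited its log2 fold was 1.01 and was not called. The median coverage was 11.9 (4.11 to 59.2) on the 8 members within 1000 bp of a start and 22.6 (1.66 to 38.3) on the 8 intergenic ones, ranges that overlap widely.

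The mark lay beside the genes rather than on them, as it did over all oriented stretches. At the median the gene held 12.6% and 10.3% of H3K4-titled coverage on the members, against 21.5% of the length. It held less than its share of length in both libraries on 12 of 15 members with at least 10 reads in each. Over all oriented stretches with as many reads the gene held 11.4% and 11% over 19.6% of the length. The shares were 8% and 8.6% on short dispersed genes, and 16.7% and 14.3% on stretches of the same length on other chromosomes. The low share on the gene is thus not particular to the members. On the members the upstream flank held 62.1% and 62.3% and the downstream flank 24.5% and 28.0%. On the 36 and 39 short dispersed genes with as many reads the flanks were more even, with 46.6% and 52.0% upstream and 43.1% and 33.8% downstream. Stretches of the same length on other chromosomes leaned upstream too, with 60.2% and 57.2% upstream and 20.5% and 17.6% downstream. The upstream flank exceeded the downstream one in both libraries on 10 of 15 members, most at tRNA-Ser (GCT) of chromosome 2 with 87.8% and 87.6%, and the reverse held on 4. Over the oriented stretches the medians were 38.4% and 42.8% upstream and 28.6% and 29.0% downstream. These counts of members were not made over all stretches. On members near a start whose libraries leaned the same way, the heavier side was that of the start in 6 of 7, the exception being tRNA-Ile of chromosome 7 with 40.5% and 41.7% upstream against 41.2% and 44.3% downstream. On intergenic members it was the side of the nearest start in 5 of 7. Most of these intergenic members leaned upstream, and most intergenic members had their nearest start upstream. Of the 8 members near a start, 5 had it upstream. No such count was made over all stretches, and a link to gene starts was not tested.

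**Figure D5:**
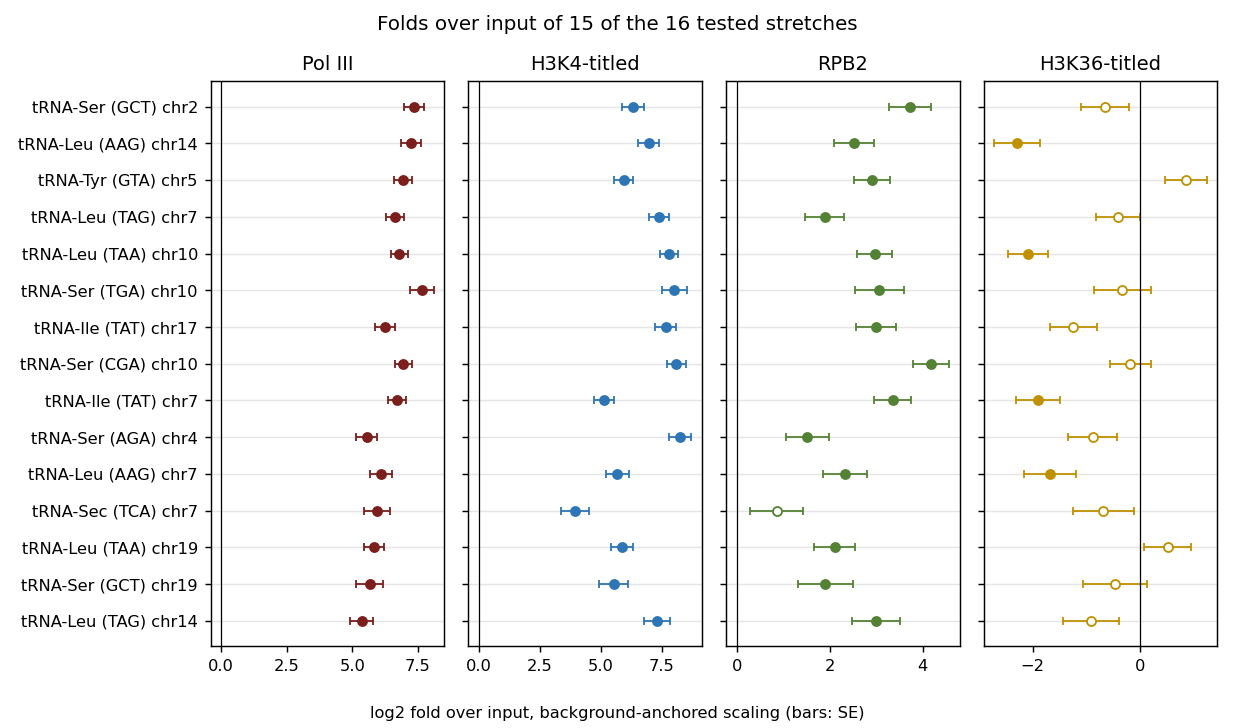
Log2 fold over input with background-anchored scaling and its SE for Pol III, H3K4-titled, RPB2 and H3K36-titled libraries, on 15 of the 16 tested members in the order of Pol III coverage; filled points passed limma's test and open points did not. All Pol III and H3K4-titled points and all RPB2 points but tRNA-Sec are filled and above 0, whereas the filled H3K36-titled points are the 4 below input.

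The H3K36-titled libraries held hardly any reads on these genes, 14 and 16 read equivalents over all 18 members, or 0.823% and 1.26% of the file over 3.13% of the length. No member was above input, where 3.14% of 478 stretches were, and 4 of 16 were below, where 7.74% were. At an unadjusted p below 0.05 limma had 6 of 16, tRNA-Tyr of chromosome 5 above and the others below. The 4 were tRNA-Ile and tRNA-Leu (AAG) of chromosome 7, tRNA-Leu (TAA) of chromosome 10 and tRNA-Leu (AAG) of chromosome 14. They had 0 reads in both libraries, which allows up to 3 reads, against 8.64, 7.37, 10.1 and 12.5 in the input libraries together, so no fold is given. The filter on low coverage used all libraries, Pol III included. With the filter and the limma fit on H3K36-titled and input libraries alone, tRNA-Leu (AAG) of chromosome 7, tRNA-Ser (TGA) and tRNA-Leu (TAG) of chromosome 14 were not tested. In that fit 0 of 14 members were called, with 3 at an unadjusted p below 0.05, where 2.09% of 478 stretches were above input and 0% below. tRNA-Leu (TAG) of chromosome 14 also had 0 reads and was not called. The highest was tRNA-Tyr on chromosome 5, with 0.889 and 0.781 reads per base against 0.925 and 1.86 in input.

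Across the 16 occupied members, Pol III and Pol II varied together more closely than either did with the H3K4-titled mark. Between mean RPC4 and mean RPB2 coverage Pearson's r was 0.73 and Spearman's rho 0.82, between RPC4 and H3K4-titled 0.22 and 0.49, and between RPB2 and H3K4-titled 0.26 and 0.51. On 44 short dispersed genes the same 3 relations gave r of 0.25, 0.02 and 0.44 and rho of 0.58, 0.12 and 0.51. These are descriptions over genes that share libraries. The replicates bound them: r between replicates over the 16 members was 0.99 for RPC1, 0.98 for RPC4 and H3K4-titled, 0.88 for RPB2 and -0.01 for input. The tRNA-Ile pair shows the separation, with Pol III ratios of 0.99 to 1.29 and an H3K4-titled ratio of 9.31, from 3.71 and 4.51 on chromosome 7 to 27.9 and 48.7 on chromosome 17, while RPB2 differed by a ratio of 1.23. For tRNA-Ser (GCT), Pol III differed by a ratio of 5.09 to 5.95, RPB2 by 6.45 and H3K4-titled coverage by 3.03. tRNA-Sec stood at the low end of both RPB2 and the H3K4-titled mark with Pol III above that of 3 other occupied members.

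By kind of gene, the 4 with introns had a median Pol III coverage of 150.4 (106.7 to 183.3) and the 12 tRNA-Ser, tRNA-Leu and tRNA-Sec genes 99.1 (22 to 235.9). Their median log2 folds over input were 6.81 and 6.37 for Pol III, 3.18 and 2.42 for RPB2, and 6.79 and 7.12 for the H3K4-titled mark, with ranges that overlap in each case. Among amino acids, the 5 tRNA-Ser genes had a median Pol III coverage of 118.5 (42.8 to 235.9) and the 6 tRNA-Leu genes 95.8 (22 to 203.0), so genes of 1 family spanned nearly the range of all occupied members.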

How the data were processed

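For 12 libraries the authors deposited coverage, a signal value at each base (mm9, per the submitters' processing notes). The aligner and the read filters were not given in the sources used. Isolated runs at a coverage of 1 were most often 76 bp long, which was taken as the length of a read. Some values are not whole, and the reason is not given. Reads outside the 532 stretches were not analysed here, so full depth is unknown. Over the stretches the libraries held 82276 to 160705 read equivalents for Pol III, 17033 and 26665 for H3K4-titled, 14779 and 13848 for RPB2, 3563 and 3365 for input and 1754 and 1273 for H3K36-titled. A further X chromosome stretch, listed in some files only, was left out.

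Abutting lines were joined into stretches, and strand and anticodon came from a cloverleaf search on the mm9 reference. Gene starts are those of protein-coding transcripts in GENCODE vM1. Mean coverage per stretch was tested with limma 3.58.1 in R 4.3.3 on log2(scaled coverage + 0.157), fitting the 12 libraries together (residual degrees of freedom: 6) with a variance trend. Each library was divided by the trimmed mean (trim 0.1) of the 25% of stretches with least Pol III, which uses Pol III to set the zero. With file totals the pseudocount was 0.089. A filter removed stretches below the 0.1 quantile of mean coverage, and p-values were adjusted over all 478. RPC1 was compared with RPC4 in the 4 Pol III libraries alone (file totals, pseudocount 0.353, 2 residual degrees of freedom). Centroids were tested without a trend on 263 stretches with a strand and a coverage of at least 5. Both functions were tested on simulated data. The report names the 8 highest and 5 lowest members by Pol III, the 5 largest folds per library kind, each member called between RPC1 and RPC4, the 3 largest centroid differences in each direction and families of up to 3 genes; 1 member is counted throughout but not reported here one by one; smaller differences were added after their values were seen. Members, lists and scaling were chosen with earlier results of these data known.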

Additional observations from a re-analysis of the deposited data

How the results depend on the processing

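The 15 members with RPB2 above input became 2 with file totals and 3 with median of ratios, and the 16 with the H3K4-titled mark above input became 7 with file totals. Under file totals the fold turned to -0.61 for tRNA-Ser (AGA) chr4, -0.23 for tRNA-Leu (TAG) chr7 and 0 for tRNA-Ser (GCT) chr19 in RPB2, and to -1.23 for tRNA-Sec (TCA) chr7 and -0.15 for tRNA-Ile (TAT) chr7 in the H3K4-titled mark. With coverage as deposited, which is not corrected for depth, the 4 members below input in H3K36-titled libraries became 13, where 67.4% of 478 stretches were below. They became 2 with the gene plus 50 bp, where 5.44% were. They became 0 with the compared groups alone, where 0% of stretches were. In that fit tRNA-Leu (AAG) of chromosome 7, which is among the 4, was not tested. The 2 level differences became 0 with background-anchored scaling, 1 with median of ratios, 0 with all 12 libraries and 3, all lower in RPC1, with coverage as deposited, and 1 to 3 when a library was left out. The 12 position differences became 0 with the summit and 3 to 12 when a library was left out. Over all stretches, 4.18% of 263 passed with the summit, and for level 3.77% of 478 were higher and 1.88% lower in RPC1 with median of ratios. Apart from the part of each fit that has fewer libraries, the cause of these changes was not tested.

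Pol III stood above input on 16 members in every alternative except file totals (11) and median of ratios (14).

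The replicate numbers share only a number: over 15 pairs of groups, replicate differences correlated between -0.119 and 0.115 (median 0.038). With the replicate block, the level differences became 1, and the counts of members above input (16, 15 and 16), below input in H3K36-titled libraries (4) and with a position difference (12) were as without it.

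Input and H3K36-titled coverage rest on few reads per member, so small differences there were not detectable. All alternatives were run.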
